A study of Homo sapiens with 29 samples.

Results

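The transcription factors described here control or oppose epithelial-mesenchymal transition (EMT) and were followed across all libraries of the series: SOX4 and FOXQ1, the core EMT factors SNAI1, SNAI2, ZEB1, ZEB2 and TWIST1, and the epithelial factors OVOL1, GRHL2 and ELF3. They are 10 of the 35579 genes into which the deposited transcripts were summed, and they were chosen on these values, so their levels and differences are given as a description, with no p-value, and nothing is read from the calls counted for them in the fit across all genes. Of the 10, 6 averaged at least 10 TPM over the libraries (transcript abundance per length, scaled to the same total in each library), 3 lay between 1 and 10 TPM and TWIST1 lay below 1 TPM.

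The samples were PC9 cells, a line from a lung adenocarcinoma with mutant EGFR, and derivatives that carry different forms of the receptor tyrosine kinase AXL. The 10 lines were parental PC9 with endogenous AXL (PAR), an AXL knockout (KO) made with a CRISPR guide in the kinase domain, and KO cells transduced by lentivirus with 1 of 8 receptors, namely the wild type (WT), a kinase-dead form (KD) or a form with phenylalanine in place of 1 tyrosine (Y634F, Y643F, Y698F, Y726F, Y750F or Y821F). Each line was left untreated, given 1 μM of the EGFR inhibitor erlotinib for 24 h (E), or given erlotinib together with 300 ng/mL of the AXL-activating antibody AF154 (EA). There was 1 library per line and treatment, 10 untreated, 10 E and 9 EA, since EA of KO cells was not analysed here. The lines therefore served as replicates of a treatment, although they differ in receptor, and nothing in the labels says that the dishes of a treatment were handled on separate days. The transduced lines are sorted populations in which most cells lack AXL, by the study's own measurement, and 9 of the 10 lines descend from the same knockout. TPM keeps no record of read numbers, so the depth behind a value is unknown. In such bulk libraries, fewer cells with a transcript and less of it per cell cannot be told apart.

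EMT is the passage of epithelial cells, which adhere tightly to each other, to a motile mesenchymal state. SNAI, ZEB and TWIST proteins bind E-box sequences and are known to repress CDH1 and other epithelial genes, whereas OVOL and GRHL proteins repress ZEB1 and maintain epithelial junctions. SOX4 is known as a target of TGF-β signalling that promotes EMT in several carcinomas, FOXQ1 as a forkhead factor that lowers CDH1 in breast and colon cancer cells, and ELF3 as an ETS factor of differentiated epithelium. EMT is one of the states in which EGFR-mutant lung cancers withstand EGFR inhibitors, and AXL is often abundant in that state.

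The labelled epithelial cell type was checked against marker lists. Of 9 epithelial and lung markers, 7 had a mean of at least 1 TPM, led by KRT7 with 5058 TPM, and the summed level lay between 8327 and 11312 TPM. The lung lineage markers NKX2-1 and SFTPB were near 0, with means of 0.0509 and 0.300 TPM. Of 7 fibroblast markers, 1 reached a mean of 1 TPM, the collagen gene COL1A1 with 42.6 TPM, and their sum went from 26.1 TPM untreated to 53.8 TPM in E and 55.04 TPM in EA. PDGFRB, a receptor that marks fibroblasts and pericytes, had means of 0.191 TPM untreated, 1.21 TPM in E and 1.58 TPM in EA. Of 8 immune and endothelial markers, 3 reached 1 TPM, led by CD68 with 42.1 TPM, CD3E was listed at 0 in every library, and their sum went from 63.2 TPM untreated to 38.2 TPM in E and 42.4 TPM in EA. The endothelial genes PECAM1 and CDH5 had means of 6.50 and 0.730 TPM untreated, 2.20 and 1.47 TPM in E, and 2.68 and 1.39 TPM in EA. The part of these shifts in the results was not tested. The defining fibroblast genes COL3A1 and THY1 had means of 0.00692 and 0.0759 TPM, and PTPRC, the marker of blood cells, 0.381 TPM. AXL itself (ENSG00000167601) had 92.4 TPM in untreated KO and 79.3 TPM in KO with E, below the 217.2 TPM or more of every other library. A guide that cuts the coding sequence need not remove the transcript, so this level does not test the knockout.

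With erlotinib, 6 of the 10 factors moved so far that the 10 untreated and the 10 E libraries did not overlap. SOX4, ELF3, SNAI2 and GRHL2 were higher in E in 10 of 10 lines, and FOXQ1 and SNAI1 were lower in 10 of 10. ZEB1, ZEB2, TWIST1 and OVOL1 overlapped between the treatments. Erlotinib changed much of the transcriptome: of the 14111 genes that averaged 1 TPM or more, 29.9% did not overlap between the 10 untreated and the 10 E libraries, 12.6% with E above and 17.2% with E below. The same was true of the model fitted to all 9085 genes that averaged 10 TPM or more (limma with the line as a block, Benjamini-Hochberg adjusted p under 0.05), which called 79.0% of genes, 36.4% higher and 42.6% lower in E. It called 5 of the 6 factors that passed this filter, which is read as no more than a description because the factors were chosen on this contrast.

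**Figure D1:**
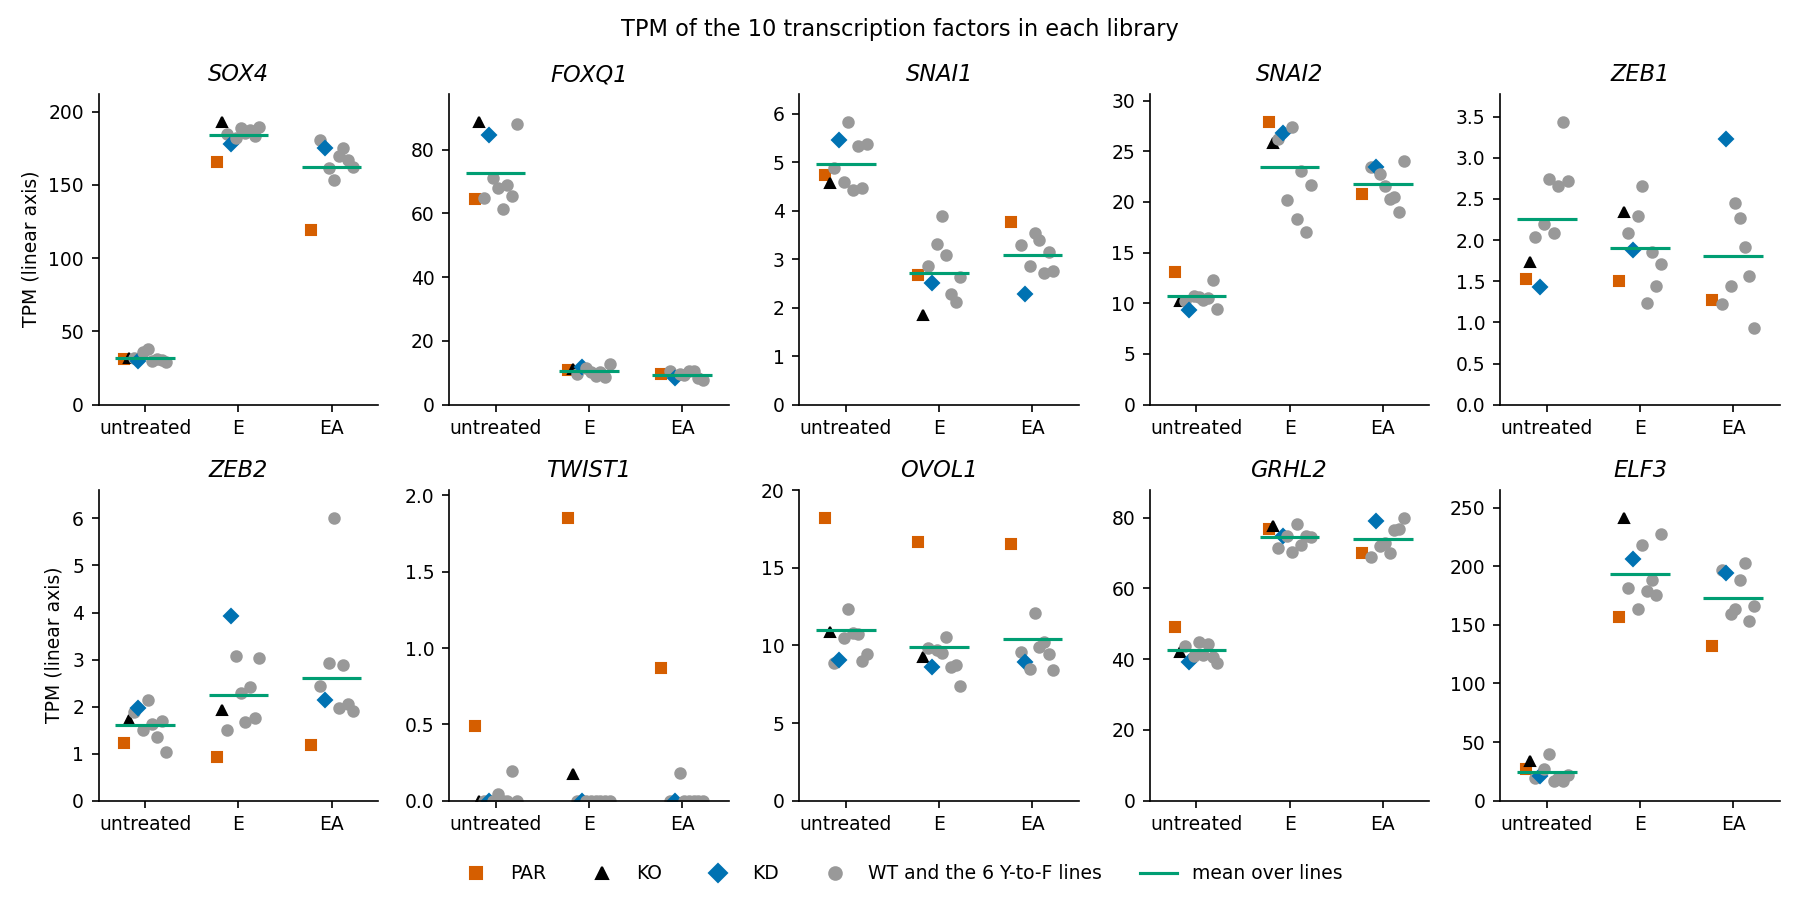
Each panel plots 1 factor, with TPM on a linear axis against treatment and 1 point per line (10 untreated, 10 E, 9 EA), and a green bar at the mean over lines, left out for TWIST1. SOX4 and ELF3 sit high in E and EA and FOXQ1 low, in all lines, while OVOL1 and TWIST1 are set by PAR (orange squares).

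SOX4 (ENSG00000124766, chromosome 6 from 21592768 to 21598619 on GRCh38, a gene with 1 listed transcript) lay between 29.4 TPM in Y821F and 37.7 TPM in Y643F without treatment, with a median of 31.2 TPM. In E it lay between 165.7 TPM in PAR and 193.1 TPM in KO, with a median of 185 TPM. These untreated and E levels left a wide gap, and the lines were close to each other within each treatment. Within lines the rise was 5.02- to 6.44-fold, a mean log2 difference of 2.49 ± 0.12 (SD, n = 10 lines). It ranked 41 among the 4314 tested genes that were higher in E, and KO, without the receptor, lay within the range of the other lines (log2 difference 2.55). Over 9 lines with all 3 treatments, 98.8% of the spread of log2(TPM + 1) of SOX4 lay between treatments and 0.485% between lines.

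With AF154 added to erlotinib, SOX4 stayed 3.84- to 5.93-fold above the untreated library of the same line. PAR had 119.0 TPM in EA against 165.7 TPM in E, the largest difference, and the other 7 lines with a kinase-competent AXL had 153.5 to 180.9 TPM in EA against 182.1 to 189.4 TPM in E. All 8 of these lines were lower in EA than in E, and the E and EA ranges overlapped through the low E value of PAR alone. The mean log2 difference was -0.19 ± 0.14 (SD, n = 8), and in KD, which has no replicate, it was -0.02. The fit across all genes called 2.36% of 9085 genes between EA and E, 1.88% higher and 0.473% lower. SOX4 was the 1 factor of the 6 tested that it called, and the call was present in 4 of 18 fits, the reported one included, so nothing is read from it.

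FOXQ1 (ENSG00000164379, chromosome 6 from 1312440 to 1314748, also 1 listed transcript) was the most abundant of the 10 factors in untreated cells. The 250 bases before its RefSeq start are shown because no other factor fell as far. The stretch, at chr6:1311848-1312097 on the plus strand of GRCh38.p14 and taken from RefSeq, lies outside the transcript that GENCODE lists, with CCAAT-box letters (CCAAT or its reverse complement ATTGG) in capitals.
FOXQ1 upstream: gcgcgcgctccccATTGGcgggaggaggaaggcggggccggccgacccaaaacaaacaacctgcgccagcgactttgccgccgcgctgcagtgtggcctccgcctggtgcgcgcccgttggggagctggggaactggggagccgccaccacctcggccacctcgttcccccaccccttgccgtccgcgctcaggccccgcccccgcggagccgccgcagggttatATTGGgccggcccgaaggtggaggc
Its G and C content was 74.0%, a share that 12.3% of the 35116 RefSeq promoter windows reached, and 32.01% of windows held CCAAT letters before the start. None of the other motifs searched was in the window, which says only that these letters are not there.

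Untreated FOXQ1 lay between 61.5 TPM in Y698F and 88.7 TPM in KO, with a median of 68.4 TPM. The libraries of KO, Y821F and KD, at 88.7, 87.9 and 84.7 TPM, stood above the other 7, which ended at 71.1 TPM in Y634F. In E the range was 8.70 TPM in Y750F to 12.8 TPM in Y821F, with a median of 10.6 TPM. FOXQ1 was thus lower in E in every line, by 5.93-fold in PAR to 7.83-fold in KO, a mean log2 difference of -2.66 ± 0.12 (SD, n = 10), which ranked 22 among the 4771 tested genes that were lower in E. In EA FOXQ1 lay between 7.66 TPM in Y821F and 10.7 TPM in WT, with a median of 9.51 TPM. The E and EA ranges overlapped and 5 of 8 lines were lower in EA, a mean log2 difference of -0.10 ± 0.28. In KD, with no replicate, it was -0.44, within the range of these lines (-0.67 to 0.24). SOX4 and FOXQ1, both described as promoters of EMT, thus stood on opposite sides of their untreated levels with erlotinib.

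Among the core EMT factors, SNAI1 and SNAI2, which are close relatives that bind the same E-box, also lay on opposite sides. SNAI1 (ENSG00000124216) lay between 4.42 and 5.84 TPM untreated (median 4.81 TPM), and between 1.85 TPM in KO and 3.90 TPM in Y643F in E (median 2.66 TPM). It was lower in E in 10 of 10 lines (mean log2 difference -0.69 ± 0.22), and with 3.09 ± 0.47 TPM in EA (SD, n = 9) it remained below the untreated range. SNAI2 (ENSG00000019549) lay between 9.39 TPM in KD and 13.1 TPM in PAR untreated (median 10.4 TPM) and between 17.0 TPM in Y750F and 27.9 TPM in PAR in E (median 24.4 TPM). It was 1.38-fold higher in E in Y750F and 2.86-fold higher in KD, with a mean log2 difference of 1.05 ± 0.30 (n = 10), and the SD of 0.30 between lines was larger than the 0.12 of SOX4 on the same scale. Between EA and E, 4 of 8 lines were higher and 4 lower for SNAI2 (mean log2 difference -0.06 ± 0.24), and 6 of 8 were higher for SNAI1 (0.13 ± 0.21). The KD differences, -0.19 for SNAI2 and -0.09 for SNAI1, lay within the ranges of these lines.

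ZEB1 and ZEB2, large zinc-finger repressors, were low. The gene sums of ZEB1 (ENSG00000148516) lay between 0.930 and 3.44 TPM and those of ZEB2 (ENSG00000169554) between 0.924 and 6.01 TPM, and neither separated the treatments. Between EA and E the mean log2 differences of the 8 lines were -0.12 ± 0.35 for ZEB1 and 0.21 ± 0.45 for ZEB2. The single KD pair lay outside the range of these lines in both genes, with 0.56 for ZEB1 (lines -0.49 to 0.55) and -0.65 for ZEB2 (lines -0.48 to 1.09). Most of the ZEB1 sum did not come from transcripts that encode the protein. The 9 protein-coding transcripts of ZEB1 held 4.26% of it, with 0.612 TPM as the highest coding sum of a library, whereas the retained-intron transcript ZEB1-218 alone held 58.8%. In ZEB2, coding transcripts held 45.0%, and a retained-intron transcript had the highest mean, 0.880 TPM. The coding sum of ZEB2 was 0.535 ± 0.257 TPM untreated, 1.07 ± 0.76 TPM in E and 1.32 ± 1.25 TPM in EA (SD over lines). In E and in EA the SD over lines was larger than the difference from the untreated mean, whereas the untreated SD was smaller. These divisions are the authors' assignment of reads to overlapping transcripts. Antisense genes of ZEB1, ZEB2 and ELF3 were not analysed here, and whether the quantification used strand is not given in the sources used here.

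**Figure D2:**
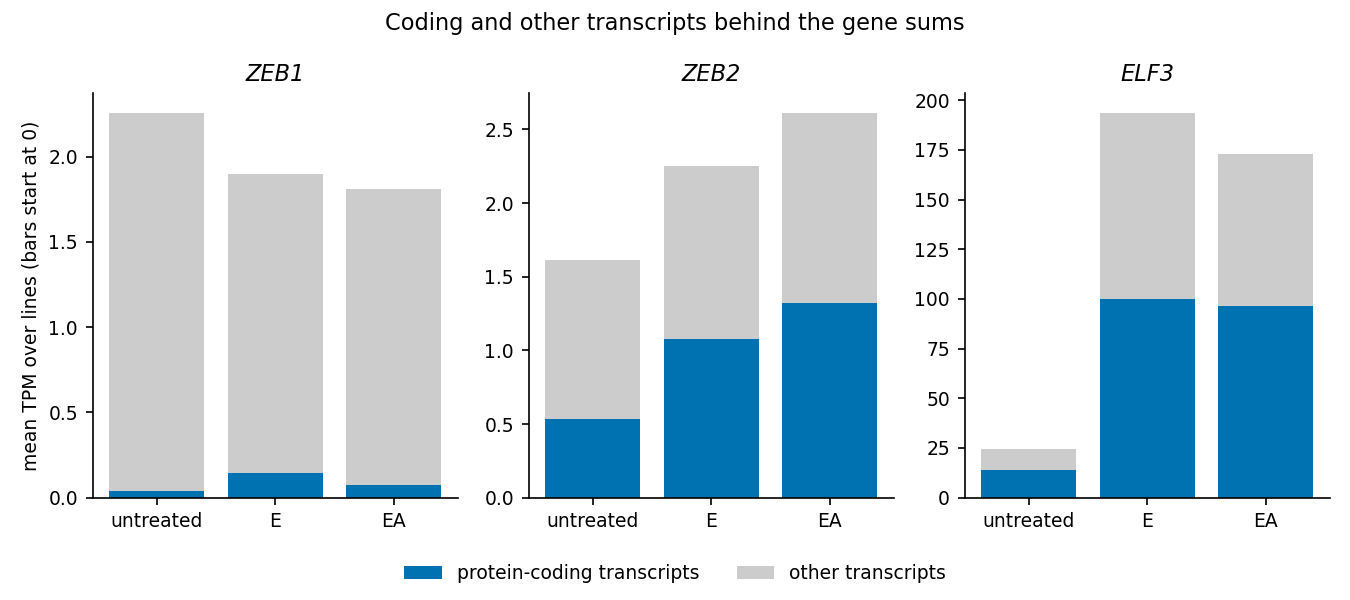
Stacked bars, starting at 0, give the mean TPM over lines in each treatment (untreated 10, E 10, EA 9) of protein-coding (blue) and other (grey) transcripts of ZEB1, ZEB2 and ELF3. The ZEB1 sum is nearly all grey, whereas the ELF3 coding part rises from 14.03 TPM untreated to 100.2 TPM in E.

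TWIST1 (ENSG00000122691), a basic helix-loop-helix factor, was listed at 0 in 22 of the 29 libraries. Its highest values were the 3 libraries of PAR, with 0.489 TPM untreated, 1.85 TPM in E and 0.866 TPM in EA. The other libraries above 0 were untreated Y750F with 0.197 TPM, EA of Y634F with 0.183 TPM, E of KO with 0.174 TPM and untreated Y643F with 0.0431 TPM. A listed 0 may stand for few reads, and with depth unknown it is not read as absence. None of the 9 lines derived from the knockout reached the lowest PAR value.

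Of the epithelial factors, ELF3 and GRHL2 were higher in E in every line and OVOL1 was not. ELF3 (ENSG00000163435, chromosome 1 from 202007945 to 202017188) lay between 16.4 TPM in Y698F and 39.4 TPM in Y643F untreated (median 21.7 TPM) and between 156.7 TPM in PAR and 241.3 TPM in KO in E (median 185.2 TPM). It was higher in E in 10 of 10 lines, 5.53-fold in Y643F, which started highest, and 10.9-fold in Y698F, which started lowest. The mean log2 difference was 2.99 ± 0.37 (SD, n = 10), the largest of the 10 factors, and it ranked 17 among the 4314 tested genes that were higher in E. Transcripts that do not encode protein carried 46.2% of the ELF3 sum, and the coding sum alone went from 14.03 ± 4.61 TPM untreated to 100.2 ± 13.0 TPM in E (SD, n = 10). In EA the gene lay between 131.5 TPM in PAR and 203.0 TPM in Y726F (median 166.2 TPM), lower than in E in 5 of 8 lines (mean log2 difference -0.13 ± 0.23, and -0.08 in KD).

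GRHL2 (ENSG00000083307), a grainyhead factor that keeps adhesion genes active, lay between 39.0 and 49.2 TPM untreated (median 41.7 TPM) and between 70.2 and 78.1 TPM in E (median 74.8 TPM). It was higher in E in 10 of 10 lines, by 1.56- to 1.91-fold (mean log2 difference 0.80 ± 0.12), and EA stayed at 73.4 ± 3.97 TPM against 74.2 ± 2.69 TPM in E in the 8 lines. OVOL1 (ENSG00000172818), a zinc-finger repressor of ZEB1, was set by the line and hardly by the treatment. PAR had 18.2, 16.6 and 16.5 TPM untreated, in E and in EA, and the other lines lay between 7.40 TPM in E of Y821F and 12.3 TPM in untreated Y643F. OVOL1 was lower in E in 9 of 10 lines by a small amount (mean log2 difference -0.14 ± 0.15), with a call as lower in 4 of 19 fits and not in the reported one, from which nothing is read, and 88.9% of its spread over 9 lines lay between lines and 3.44% between treatments. Without PAR these shares were 57.4% and 12.5%. PAR is the only line that did not pass through knockout and sorting, and these steps and the endogenous AXL cannot be told apart.

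**Figure D3:**
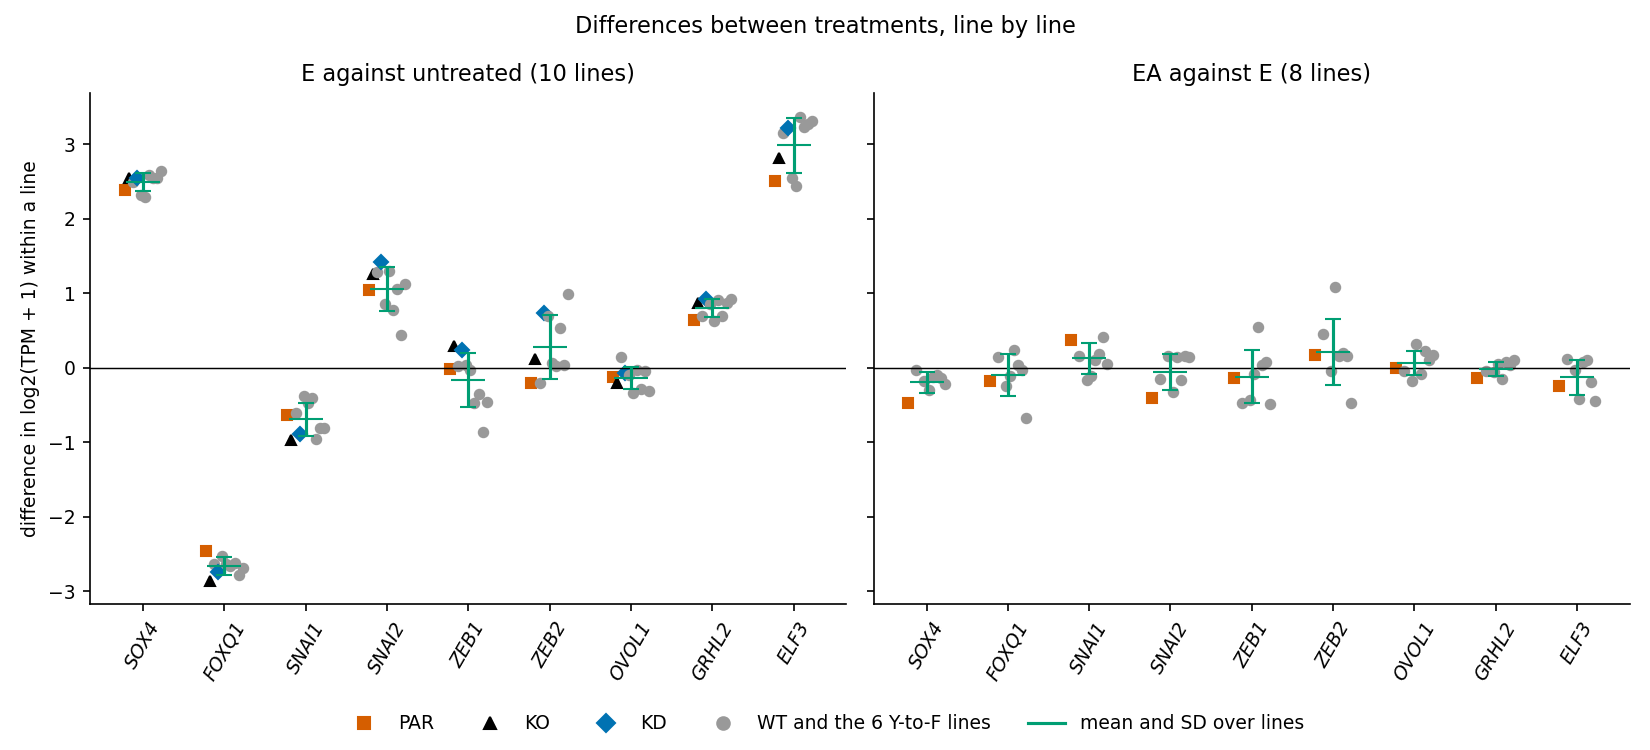
The differences in log2(TPM + 1) within a line are plotted for 9 factors, E minus untreated in 10 lines on the left and EA minus E in 8 lines on the right, with the mean and SD over lines in green. ELF3 and SOX4 lie highest and FOXQ1 lowest on the left, and on the right all 8 SOX4 points lie below 0.

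Because several factors of EMT bind E-boxes, the letters CAGGTG and their reverse complement CACCTG were searched in the RefSeq promoter windows (250 bases before to 50 after a start, GRCh38.p14), together with AACAAT or ATTGTT (SOX core), TGTTTA or TAAACA (forkhead core) and TGANTCA (AP-1, its own reverse complement). Of the 10 factors, the windows of 5 were searched: SOX4, FOXQ1, ELF3, ZEB2 and ZEB1, the last with 7 windows. Windows of the other factors, SNAI2 and GRHL2 among them, were left out of the search, so nothing is said of their letters. E-box letters were in the ELF3 window and in 2 of the ZEB1 windows, and 20.6% of all 35116 windows held them. The matches are shown on the strand of the gene with 8 bases on each side where the window allows, the E-box in capitals.
ELF3, chr1:202010459-202010480, plus strand: atgcaaatCACCTGgggccagg
ZEB1, chr10:31318352-31318373, plus strand: ggtgacagCAGGTGagggccgg
ZEB1, chr10:31318966-31318987, plus strand: ccccaccaCACCTGaggaaaac
ZEB1, chr10:31319123-31319144, plus strand: tcgtaaacCAGGTGcggtgggg
ZEB1, chr10:31319241-31319262, plus strand: gatggcccCAGGTGtaagcgca
The ELF3 match began 120 bases before the RefSeq start, inside the span that GENCODE gives the gene. The GENCODE span of ZEB1 starts at 31318495, so the first ZEB1 match lies before it and the others inside it. The forkhead letters were in 3 other ZEB1 windows, and 12.3% of all windows held them. The SOX letters, which 10.1% of all windows held, and the AP-1 letters, which 7.71% held, were in none of these members' windows. These are matches of letters and not measured binding.

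The order of the levels changed with erlotinib. Untreated, the means ran from FOXQ1 (72.5 TPM) through GRHL2 (42.5 TPM), SOX4 (31.9 TPM), ELF3 (24.2 TPM), OVOL1 (10.97 TPM) and SNAI2 (10.7 TPM) to SNAI1 (4.97 TPM) and the ZEB genes. SOX4 overlapped with ELF3, ELF3 with OVOL1 and OVOL1 with SNAI2 over the lines, whereas FOXQ1 and GRHL2 were each clear of the next in the order. In E the order began with ELF3 (193.7 TPM) and SOX4 (183.8 TPM), which overlapped, followed by GRHL2 (74.6 TPM), SNAI2 (23.4 TPM), FOXQ1 (10.6 TPM) and OVOL1 (9.88 TPM), of which the last pair overlapped. FOXQ1 thus went from the highest of the 10 to a level near that of OVOL1, and ELF3 and SOX4 took its place.

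The genes whose pattern over the 29 libraries was most like that of a factor were taken from the 9085 genes by Pearson's r of log2(TPM + 1). These libraries share 10 lines and 3 treatments, and for the factors whose spread lay mostly between treatments, which OVOL1's did not, a high r goes with the step between untreated and treated cells. For SOX4 the closest were CDKN2B, an inhibitor of cyclin-dependent kinases (r = 0.998), HEG1 (0.996), PBXIP1 (0.995) and LRP10 (0.994), and the most opposite were the chaperones HSPD1 (-0.993) and CCT5 (-0.992). After the mean of each line was taken off, CDKN2B was again closest (0.999), followed by the actin-binding GSN and TAGLN and by GABARAPL1 (each 0.998). For FOXQ1 the closest was DUSP4, a phosphatase of MAP kinases that is induced by ERK signalling (0.991), followed by MAPK13 (0.987), IGFBP4 (0.986) and HMGA2 (0.985), and CCDC80 (-0.988) and TPM4 (-0.985) were most opposite. The order changed with line means taken off. STMN3, MYH16 and NIBAN2 (each 0.996) then came before DUSP4 (0.995), and KLF8 (-0.997) and PDLIM1 (-0.996) were most opposite.

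ELF3 was closest to MVP (0.991), OTUD1 (0.990) and SOX4 (0.989), and after line means were taken off to TP53I3, C15orf48 and JUNB (each 0.997). GRHL2 was closest to JARID2 and CASTOR3P (each 0.987) and most opposite to ATP5F1B (-0.990). SNAI2 had lower values, with A4GALT first (0.966), UBL3 next (0.962) and ZNF511 most opposite (-0.965). OVOL1 had the lowest, with CLSTN1 (0.902), OGDH (0.890), SH3BGRL3 (0.886) and CELSR1 (0.884), and after the line means were taken off its closest gene was ARG2 (0.795). Among the factors themselves, SOX4 and FOXQ1 had r = -0.981, SOX4 and GRHL2 0.979, ELF3 and GRHL2 0.970, SOX4 and OVOL1 -0.231, and ELF3 and OVOL1 -0.193. With line means taken off, the pairs with OVOL1 had larger values, -0.541 for SOX4 and -0.522 for ELF3. The other pairs then had -0.987 (SOX4 and FOXQ1), 0.987 (SOX4 and GRHL2) and 0.981 (ELF3 and GRHL2).

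General lists of epithelial and mesenchymal genes were tested in the fit across all genes. These factors are known to act on some of them, but the lists are not lists of their targets. Of 34 epithelial genes, all passed the filter, and 25 rose and 5 fell in E, 88.2% called beside 79.0% of all genes tested, of which 36.4% were called higher and 42.6% lower. The median log2 change of the list was 0.47 and that of all genes -0.04. Among the largest rises were those of the mucin MUC1, from 8.78 ± 4.11 to 31.2 ± 5.28 TPM (SD, n = 10 lines, log2 change 1.79, SE 0.14, limma adjusted p = 2.4e-08), the junction protein TJP3 (1.40) and the protease PRSS8 (1.30). CDH1, the adhesion protein of epithelial cells and the classic target of SNAI and ZEB proteins, went from 82.2 ± 10.5 to 131.1 ± 12.3 TPM and was higher in 10 of 10 lines (log2 change 0.67, SE 0.04, limma adjusted p = 2.13e-09). The keratin KRT18 (-0.64), the desmosome protein PKP3 (-0.49), EPCAM (-0.44) and KRT8 (-0.31) fell.

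Of 33 mesenchymal genes, 19 passed the filter, of which 12 rose, 5 fell and 2 were not called (89.5% called beside 79.0% of all genes, median log2 change 0.92). TAGLN, an actin-binding protein of contractile cells, went from 17.4 ± 6.33 to 167.8 ± 43.4 TPM (log2 change 3.21, SE 0.09, limma adjusted p = 3.28e-13, higher in 10 of 10 lines), and MMP14 (1.94) and TPM1 (1.44) were also among the genes that rose most. The fallers were led by NT5E (-2.34), S100A4 (-0.79), the intermediate filament VIM (-0.58) and COL6A1 (-0.50). VIM had 33.2 ± 9.18 TPM untreated and 21.6 ± 5.68 TPM in E. The mesenchymal genes FN1 and CDH2, among the 12 that rose, were higher in E in 10 of 10 lines. FN1 went from 117.6 ± 16.1 to 310.5 ± 47.1 TPM and CDH2 from 11.2 ± 1.6 to 20.4 ± 5.08 TPM. The 14 genes below the filter included ACTA2 with a mean of 2.56 TPM.

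**Figure D4:**
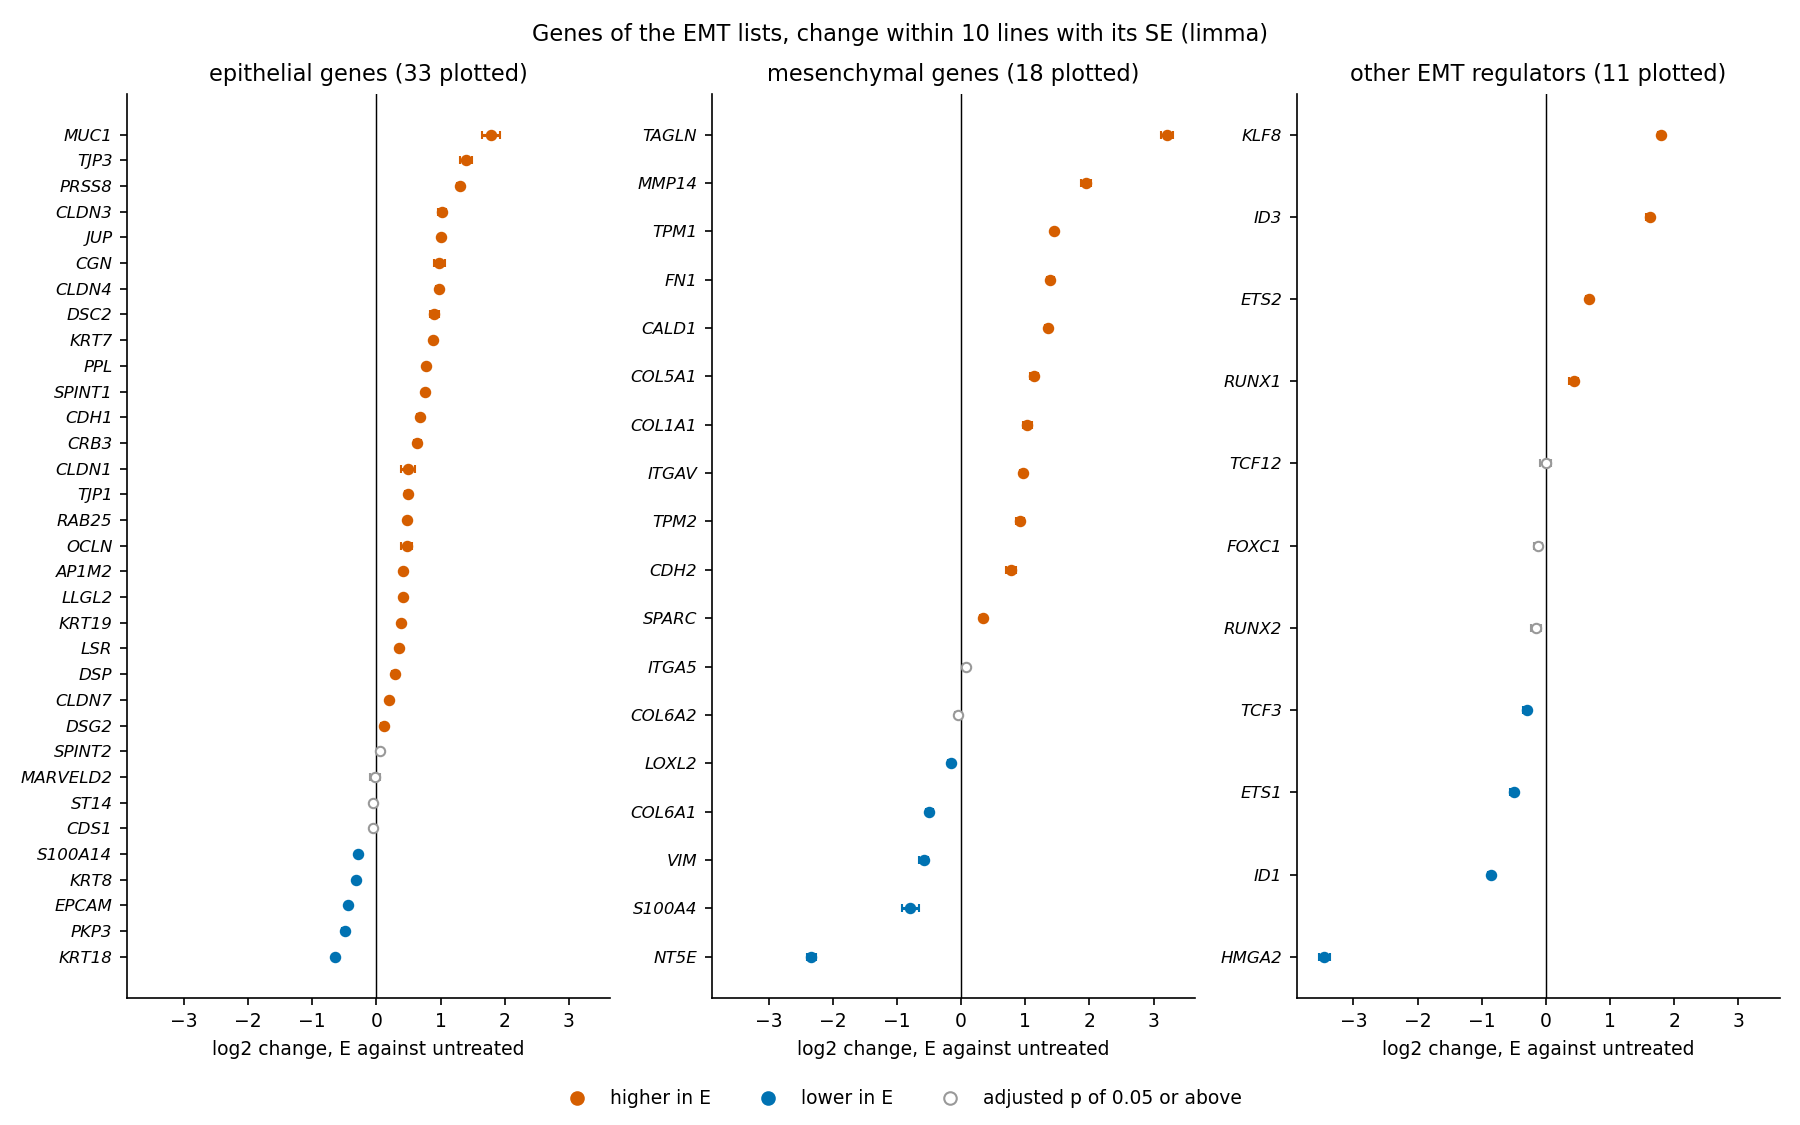
Each point is a plotted gene of the epithelial, mesenchymal or other EMT regulator list, with its log2 change between E and untreated over 10 lines on the horizontal axis and its SE as a bar. Orange genes rose, blue genes fell and open grey genes did not pass the adjusted p of 0.05. Most plotted genes of the epithelial and mesenchymal lists are orange and lie to the right of 0, and HMGA2 lies farthest left.

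Of 23 other regulators of EMT, 11 passed the filter, of which 4 rose and 4 fell (72.7% called, beside 79.0% of all genes tested). With the filter at 1 TPM 4 rose and 8 fell, and with no filter 4 rose and 9 fell. The chromatin protein HMGA2 fell from 76.7 ± 7.51 to 6.12 ± 1.03 TPM (SD, n = 10 lines, log2 change -3.45, limma adjusted p = 1.34e-13), followed by ID1 (-0.86), ETS1 (-0.50) and TCF3 (-0.30). KLF8 (1.80), ID3 (1.61), ETS2 (0.66) and RUNX1 (0.43) rose, so that the related inhibitors of E-box factors ID1 and ID3 lay on opposite sides. TWIST2, at 10.1 TPM untreated and 6.13 TPM in E, was below the filter, but far above TWIST1. Of 17 other factors of epithelial identity, 7 passed, and 3 rose, among them KLF5 (0.25) and ESRP2 (0.16), and 4 fell (KLF4 -0.68, FOXA1 -0.48, ESRP1 -0.29, EHF -0.21).

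Relatives of SOX4, FOXQ1 and ELF3 were called in both directions, as were genes at large, of which 36.4% were called higher and 42.6% lower. Of 17 other SOX genes, 4 passed the filter, SOX12 rose (0.53) and SOX9 (-1.07), SOX15 (-0.76) and SOX13 (-0.60) fell. SOX11, which belongs with SOX4 and SOX12 to the SoxC group, had a mean of 0.0171 TPM. Of 38 forkhead genes, 12 passed, 3 rose (FOXO4 1.44, FOXP1 0.51, FOXO3 0.37) and 8 fell, led by FOXD1 (-2.28), the cell-cycle factor FOXM1 (-1.20), FOXA1 and FOXJ2 (-0.37). Of 20 ETS genes, 12 passed, 3 rose (ELF1 0.72, ETV6 0.42, ELF4 0.39) and 6 fell, led by ETV4 (-3.49) and ETV5 (-3.00), known targets of ERK signalling, and by ELK1 (-0.41) and ELK3 (-0.40). EHF, the ETS factor closest to ELF3 in epithelium, went from 81.0 to 70.0 TPM while ELF3 rose past it. The difference between a factor and its relatives was not tested.

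Between EA and E, limma called 0 of 34 epithelial genes, 0 of 19 mesenchymal genes, 0 of 7 identity factors, 0 of 11 other regulators, 0 of 4 SOX genes and 0 of 12 ETS genes, and 1 of 12 forkhead genes, FOXM1, which rose by 0.23 (adjusted p = 0.0383, higher in 7 of 8 lines), where 2.36% of all genes were called. The call of FOXM1 was present in 8 of all 18 limma fits tried, with adjusted p from 0.0263 to 0.212. At an unadjusted p under 0.05 the counts were 6 epithelial, 3 mesenchymal, 2 identity, 2 other regulator, 0 SOX, 1 ETS and 2 forkhead genes, beside 20.9% of all 9085 genes. The median log2 changes of the epithelial and mesenchymal lists were -0.02 and -0.02, beside 0.02 for all genes. This comparison and that of E with untreated cells share the E libraries.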

How the data were processed

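RNA of 10 PC9 lines was analysed in 29 libraries, 1 per line and treatment. The authors deposited TPM per transcript. The submitters' processing notes name kallisto and GRCh38, and the annotation and strand handling are not given in the sources used here. Of 188753 transcripts, 169797 matched GENCODE release 29 by identifier and were summed to 35579 genes, with 97.0% to 97.3% of the TPM of a library.

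The 9085 genes that averaged 10 TPM or more in the 29 libraries were fitted as log2(TPM + 1) with limma 3.58.1 (R 4.3.3), the line as a block (a line's libraries come from the same cells), E against untreated in 10 lines and EA against E in the 8 lines other than KO and KD, with Benjamini-Hochberg adjustment. The fit was also tested on simulated data in which 200 genes were changed. Members and lists were chosen with earlier results of these data known. Named were the 10 factors, AXL, up to 4 rises and 4 falls per list, the closest genes by r, and the main transcripts, except 3 genes that are neither reported nor plotted here. CDH1, CDH2, FN1, TWIST2, SOX11, ACTA2, the markers and the CCAAT letters were added after their values were seen.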

Additional observations from a re-analysis of the deposited data

Results flagged for a closer look

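In 45 groups of values (9 factors, each in 3 treatments and 2 sets of differences), a line far from the others on the log2 scale was looked for, as a description. The differences are built from the same levels, and the factors were chosen on these values. The number of groups marked is therefore not set against chance. A line was marked in 4 groups, of which 3 concerned PAR. SOX4 in EA was 119.0 TPM in PAR, against 153.5 to 180.9 TPM in the other 8 lines. OVOL1 was 18.2 TPM in untreated PAR, against 8.84 to 12.3 TPM in the other 9 lines, and 16.6 TPM in E of PAR, against 7.40 to 10.5 TPM. ZEB2 in EA was 6.01 TPM in Y643F, against 1.18 to 2.93 TPM in the others. Each rests on 1 library, and its cause was not tested.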

How the results depend on the processing

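Other settings tried were looser and stricter filters, a smaller pseudocount (0.1), libraries centred on their medians or quantile-normalized, mitochondrial genes left out, no replicate block, the KD pair included, protein-coding transcripts only and each line left out in turn. Leaving out 1 line cannot move a mean by 1 SD over lines, so a comparison with that SD could not fail for those settings. All 246 recomputed member differences stayed within 1 SD over lines of the reported value. The sign turned in 4 of them, for ZEB1 between E and untreated with protein-coding transcripts only (0.13 beside -0.16), and between EA and E for OVOL1 with the same setting (-0.05 beside 0.06) and GRHL2 without PAR or Y698F (0.001 and 0.004 beside -0.015). Between E and untreated, 5008 genes were higher with a filter at 1 TPM and 5500 with no filter, beside 3309, since more genes were tested, and 8 and 9 of the other EMT regulators were then lower, beside 4. Between EA and E, where 171 genes were higher and 43 lower, the counts were 58 and 9 with the filter at 1 TPM, 5 and 1 with no filter, 260 higher with mitochondrial genes left out, 72 lower with medians centred, 9 and 0 without the replicate block, and 98 and 22 with the KD pair. With 1 line left out, between 10 (without Y634F) and 146 (without Y726F) were higher and between 0 and 42 lower, and leaving out Y643F gave 18 and 0. The call of SOX4 between EA and E was present in 4 of 18 fits, with differences of -0.22 to -0.16. FOXQ1 did not pass a filter on the EA and E libraries alone. Depth is unknown, which limits the factors below 10 TPM most.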

Other observations

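AXL was higher in E than untreated in 8 of 10 lines (limma over all 10 lines, log2 change 0.63, SE 0.14, adjusted p = 0.000762). The exceptions were PAR (350.8 TPM untreated, 245.4 TPM in E) and KO, the lines without a transgene, and the difference between them and the other 8 was not tested. SOX4 was higher in E in both of these lines too, by 2.38 in PAR and 2.55 in KO on the log2 scale.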
